A study of Mus musculus with 12 samples.

Results

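The complement genes described here are 9 genes of the classical pathway, the alternative pathway and their inhibitors that tumors can make locally: C1ra, C1s1, C4b, C2, C3, Cfb, Cfp, Serping1 and Cd55. They were taken by symbol from the 47643 genes of the deposited tables, and all 9 passed the low-count filter with 16013 genes in total. They were measured by bulk poly(A) RNA sequencing in pieces of pancreatic tumor from 6 Old tumor and 6 Young tumor libraries. Every tumor was labelled as KPC4662, a line from a mouse pancreatic ductal adenocarcinoma, with the cell type epithelial. The labels say only that the host mice were old or young. Their age, strain, sex and route of implantation, not given in the sources used here, remain unknown, and no treatment is named. Nothing says that the pieces are from separate mice, so p-values measure only the spread between pieces, which may be technical.

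Library totals were 22.6 ± 2.41M counts in Old tumor and 21.9 ± 1.13M in Young tumor (SD, n = 6 each). The complement genes had between 143 and 23270 expected counts in a library. All 9 epithelial markers were detected, at a summed 5214 to 8339 TPM (a level per transcript length, scaled to the library) in Old tumor and 5314 to 9151 TPM in Young tumor. Old tumor 1 was the highest library for 8 of the 9 complement genes, so the age differences of the 9 are given with and without it. In such bulk pieces, fewer cells of a type and less RNA per cell cannot be told apart.

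Complement is a cascade of plasma proteins that tags cells for uptake, attracts leukocytes and can pierce membranes. In the classical pathway the proteases C1r and C1s are docked on C1q. C1r activates C1s, which cleaves C4 and then C2, and fragments of C4 and C2 together form an enzyme that cleaves C3. In the alternative pathway factor B binds activated C3 to form a further C3-cleaving enzyme, which properdin, encoded by Cfp, stabilises. Serping1 encodes C1 inhibitor, which inactivates C1r and C1s, and Cd55 encodes decay-accelerating factor, a membrane protein that takes the C3-cleaving enzymes apart. Liver makes most plasma complement, while fibroblasts, macrophages and epithelial cells also make components in tissue. C3, Cfb and other components are known to be induced by inflammatory cytokines and interferons.

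The promoter windows of C1ra, C1s1 and C3 are shown because C1ra had its highest correlations over the 12 libraries with C1s1 and C3. C1ra and C1s1 are neighbours on chromosome 6. RefSeq windows of 300 bases, from 250 before to 50 after the start, were matched for 5 of the 9 genes on mm10. These are chr6:124512371-124512670 on the plus strand for C1ra, chr6:124542310-124542609 on the minus strand for C1s1 and chr17:57228087-57228386 on the minus strand for C3. The capitals mark every match on either strand to 4 motifs: TTNNGNAAT (C/EBP), TTCNNNGAA (STAT), an IRF motif of the interferon-stimulated response element, and an NF-kB motif.
C1ra: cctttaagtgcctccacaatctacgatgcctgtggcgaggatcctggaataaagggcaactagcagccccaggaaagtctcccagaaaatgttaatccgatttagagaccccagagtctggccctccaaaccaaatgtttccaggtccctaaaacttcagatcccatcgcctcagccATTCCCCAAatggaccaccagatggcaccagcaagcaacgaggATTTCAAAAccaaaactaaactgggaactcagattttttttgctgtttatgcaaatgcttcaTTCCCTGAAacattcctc
C1s1: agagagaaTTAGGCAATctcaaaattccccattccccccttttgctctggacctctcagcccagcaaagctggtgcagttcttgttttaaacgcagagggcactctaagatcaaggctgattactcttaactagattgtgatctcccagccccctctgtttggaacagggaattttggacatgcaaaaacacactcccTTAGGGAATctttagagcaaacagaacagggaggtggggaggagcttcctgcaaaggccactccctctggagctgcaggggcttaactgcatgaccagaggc
C3: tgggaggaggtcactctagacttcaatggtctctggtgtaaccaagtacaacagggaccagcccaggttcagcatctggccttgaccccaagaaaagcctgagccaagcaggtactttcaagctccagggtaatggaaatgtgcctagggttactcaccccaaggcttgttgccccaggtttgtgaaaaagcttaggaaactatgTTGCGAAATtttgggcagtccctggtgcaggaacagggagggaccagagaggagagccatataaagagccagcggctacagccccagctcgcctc
C1ra held the C/EBP letters at −73 to −65 and −30 to −22 and the STAT letters at 33 to 41, counted from the first base of the transcript. C1s1 held the C/EBP letters at −242 to −234 and −52 to −44, and C3 at −45 to −37. RefSeq gives a second start for C1s1, with the window chr6:124542272-124542571, which holds 1 match, at −90 to −82 from that start. No match overlapped another, and the windows of Cfp and Cd55 held no match. Of 32851 RefSeq windows of the same length, 11.5% held the C/EBP letters, 8.3% the STAT letters, 3.44% the IRF motif and 1.47% the NF-kB motif. A match describes the letters and is no evidence that a factor binds there. C2, C4b, Cfb and Serping1 had no entry among the RefSeq windows.

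Cfb was the most abundant complement message per length, at 308 ± 57.3 TPM in Old tumor and 316 ± 51.2 TPM in Young tumor (SD, n = 6 each). C3 followed at 173 ± 125 TPM in Old tumor and 145 ± 44.5 TPM in Young tumor, and Serping1 at 122 ± 74.1 TPM in Old tumor and 66.9 ± 22.4 TPM in Young tumor. These 3 kept that order in every Young tumor library. Among Old tumor libraries Cfb lay above C3 in 5 of 6, and C3 above Serping1 in 5 of 6. C4b, C1s1 and Cfp formed a middle group between 34.8 and 49.1 TPM in Old tumor and between 30.0 and 31.5 TPM in Young tumor. The order within that group changed from library to library in both ages. C1ra, C2 and Cd55 were lowest, between 10.8 and 15.5 TPM in Old tumor and between 7.94 and 10.8 TPM in Young tumor, again without a fixed order.

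**Figure D1:**
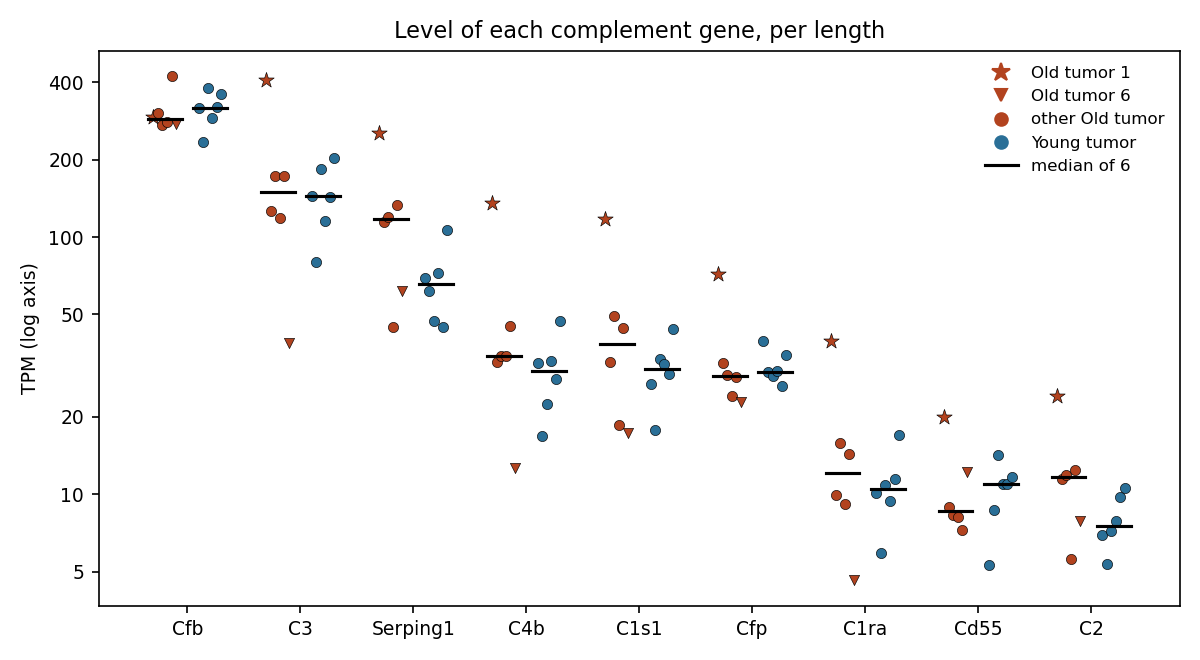
Level of each complement gene in TPM on a log axis, one point per library with the median of 6 as a bar, Old tumor left and Young tumor right of each gene name. Cfb lies highest in both ages, and Old tumor 1 (star) lies above every other library for each gene except Cfb.

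The summed level of the classical genes C1ra, C1s1, C4b and C2 was 123 ± 98.3 TPM in Old tumor and 79.3 ± 23.3 TPM in Young tumor (SD, n = 6 each). The alternative genes C3, Cfb and Cfp summed to 516 ± 157 TPM in Old tumor and 493 ± 95.8 TPM in Young tumor. The inhibitors Serping1 and Cd55 summed to 132 ± 77.7 TPM in Old tumor and 77.2 ± 22.3 TPM in Young tumor. Without Old tumor 1 the Old tumor sums were 84.8 ± 30.6 TPM for classical, 465 ± 105 TPM for alternative and 104 ± 38.2 TPM for inhibitor genes (SD, n = 5). In both ages the alternative genes thus held most of the summed level, with C3, on which all pathways converge, counted among them. Cfb alone held 44.2 ± 13.4% of the sum of the 9 in Old tumor and 49.0 ± 3.29% in Young tumor (SD, n = 6 each). Serping1 exceeded C1s1, a protease it inactivates, in all 12 libraries. The ratio of Serping1 to C1s1 ran from 2.17 to 3.57 in Old tumor and from 1.40 to 3.49 in Young tumor. The ratio of Cfb to C3 was wider in Old tumor, from 0.722 in Old tumor 1 to 7.13 in Old tumor 6, and ran from 1.77 to 2.93 in Young tumor.

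The comparison of ages asked whether complement messages in the tumor differed with the age of the host. None of the 9 genes passed the edgeR threshold of an adjusted p of 0.05 over all genes, where 0.793% of tested genes were higher and 1.47% lower in Old tumor, 2.26% in all. None of the 9 reached an unadjusted p under 0.05 in edgeR, against 21.1% of all tested genes, and DESeq2 called 0 of them too. In other edgeR fits some did. Serping1, higher in Old tumor, had an unadjusted p of 0.0490 with total counts, 0.0381 with no filter and 0.0466 with the length trend removed. It had 0.0118, 0.0241 and 0.0281 without Old tumor 4, Old tumor 6 or Young tumor 6, and C4b, also higher, 0.0346 without Old tumor 6. Cfp, lower in Old tumor in these fits, had 0.00479 without Old tumor 1. Its edgeR unadjusted p was 0.0099 without Old tumor 1 and Old tumor 5, and 0.0193 without Old tumor 1 and Old tumor 6. Of the 9, 8 had a log2 fold change above 0, against 54.2% of all tested genes, with a median of 0.40 for the complement genes and 0.03 for all. Old tumor and Young tumor overlapped in CPM (counts scaled to library size) for all 9. Groups that did not overlap were seen for 0.999% of tested genes with Old tumor higher and 1.97% with Old tumor lower.

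Old tumor 1 was the highest of the 12 libraries for 8 of the 9 genes, all but Cfb; it was the highest for 14.0% of all tested genes. Without it 3 of the 9 log2 fold changes were above 0, against 50.1% of tested genes, and their median was −0.09. None of the 9 was then called, where edgeR called 2.69% of tested genes higher and 4.17% lower, 6.86% in all. The ages still overlapped in CPM for all 9 without it, while 2.92% of tested genes lay wholly higher and 3.42% wholly lower in Old tumor. Only Cfp of the 9 reached an unadjusted p under 0.05 without Old tumor 1, against 24% of tested genes. Old tumor 6 was the lowest of the 12 libraries for 5 of the 9, namely C1ra, C1s1, C3, C4b and Cfp, and for 8.48% of all tested genes. It was also the library with the fewest counts, 17.8M against 20.1M to 24.1M in the others. Old tumor 1 was left out for its high values, so a fall in the fold changes of those 8 genes was built in. Without both Old tumor 1 and Old tumor 6, 5 of the 9 log2 fold changes were above 0. Their median was then 0.04, against 0.01 for all tested genes. The number above 0 thus depended on which libraries were kept.

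**Figure D2:**
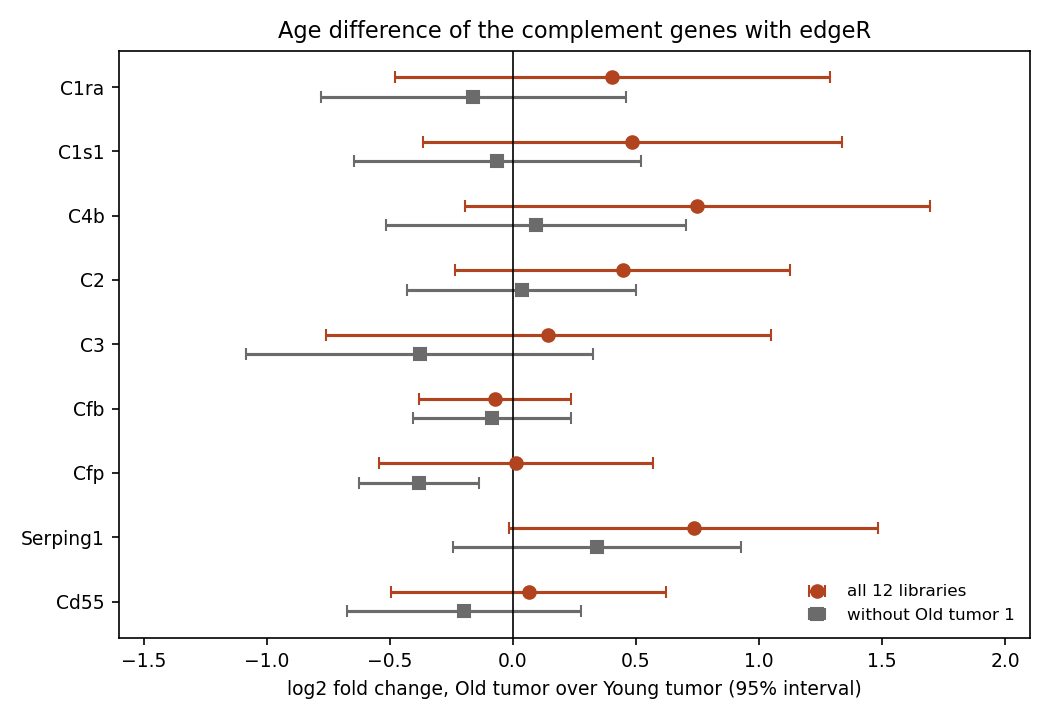
Log2 fold change of each complement gene in Old tumor over Young tumor with its 95% interval from edgeR, for all 12 libraries (circles) and without Old tumor 1 (squares). With all libraries every interval includes 0, and without Old tumor 1 that of Cfp does not, at an adjusted p of 0.059.

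C1ra (ENSMUSG00000055172; mm10 chromosome 6, 124512405 to 124523443), which encodes the protease C1r, had 7.89, 20.9 and 70.5 CPM as lowest, median and highest value in Old tumor, and 11.3, 19.9 and 31.6 CPM in Young tumor. Its medians lay close together, and Old tumor held both the lowest and the highest library. The log2 fold change of C1ra was 0.40 (SE 0.41, adjusted p = 0.604 in edgeR), which allows a fold between 0.717 and 2.44 at 95%, and −0.16 (SE 0.29) without Old tumor 1.
C1s1 (ENSMUSG00000038521; chromosome 6, 124530345 to 124542359), which encodes the protease C1s, had 27.5, 62.6 and 195 CPM in Old tumor, and 32.1, 57.3 and 75.5 CPM in Young tumor. Old tumor 1 and Old tumor 3 lay above every Young tumor library. Its log2 fold change was 0.49 (SE 0.40, adjusted p = 0.509 in edgeR), and −0.06 (SE 0.27) without Old tumor 1.

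C4b (ENSMUSG00000073418; chromosome 17, 34728380 to 34743882), which encodes complement C4, had 24.5, 61.9 and 242 CPM in Old tumor, and 31.5, 48.0 and 85.8 CPM in Young tumor. Of the 6 Old tumor libraries 5 lay above the Young tumor median, and Old tumor 1 alone lay above every Young tumor library. The log2 fold change of C4b was 0.75 (SE 0.44, adjusted p = 0.348 in edgeR), the largest of the 9, and it was 0.09 (SE 0.28) without Old tumor 1.
C2 (ENSMUSG00000024371; chromosome 17, 34862604 to 34898265), which encodes the protease that pairs with C4, had 6.08, 12.4 and 30.5 CPM in Old tumor, and 7.08, 10.1 and 13.7 CPM in Young tumor. Only Old tumor 1 lay above every Young tumor library in CPM, while 4 of 6 Old tumor libraries did in TPM. Its log2 fold change was 0.45 (SE 0.32, adjusted p = 0.438 in edgeR), and 0.04 (SE 0.22) without Old tumor 1.

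C3 (ENSMUSG00000024164; chromosome 17, 57203970 to 57228136), on which all pathways converge, had 81.9, 328 and 969 CPM in Old tumor, and 187, 362 and 494 CPM in Young tumor. Old tumor 6 lay below and Old tumor 1 above every Young tumor library, and the other 4 lay within the Young tumor range. The log2 fold change of C3 was 0.14 (SE 0.42, adjusted p = 0.877 in edgeR), which allows a fold between 0.590 and 2.07 at 95%, and it was −0.38 (SE 0.33) without Old tumor 1.
Cfb (ENSMUSG00000090231; chromosome 17, 34856374 to 34862518), which encodes factor B, had 237, 251 and 404 CPM in Old tumor, and 212, 302 and 333 CPM in Young tumor. Of the 6 Old tumor libraries 5 had between 237 and 267 CPM, and Old tumor 5 held the highest value of all. For Cfb the log2 fold change was −0.07 (SE 0.14, adjusted p = 0.806 in edgeR), and the 95% interval of the fold was 0.767 to 1.18, the narrowest of the 9. Without Old tumor 1 the log2 fold change was −0.09 (SE 0.15).

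Cfp (ENSMUSG00000001128; chromosome X, 20925454 to 20931555), the gene of properdin, had 19.2, 24.1 and 63.8 CPM in Old tumor, and 24.2, 29.1 and 35.7 CPM in Young tumor. Old tumor 1 was the highest of all, whereas 3 of the 6 Old tumor libraries lay below every Young tumor library in CPM, and 2 did in TPM. The log2 fold change of Cfp was 0.01 (SE 0.26, adjusted p = 0.983 in edgeR). Without Old tumor 1 it was −0.38 (SE 0.11, adjusted p = 0.059 in edgeR), with 22.7 ± 3.04 CPM in Old tumor (SD, n = 5) and 29.3 ± 4.28 CPM in Young tumor (SD, n = 6).

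Serping1 (ENSMUSG00000023224; chromosome 2, 84765387 to 84775444), the gene of C1 inhibitor, had 46.9, 118 and 266 CPM in Old tumor, and 49.9, 74.1 and 115 CPM in Young tumor. Of the 6 Old tumor libraries 3 lay above every Young tumor library and 1 lay below. For Serping1 the log2 fold change was 0.73 (SE 0.35, edgeR unadjusted p = 0.055, adjusted p = 0.246), which allows a fold between 0.989 and 2.80 at 95%. Without Old tumor 1 it was 0.34 (SE 0.27, adjusted p = 0.480 in edgeR), and it stayed above 0 under every alternative tried.
Cd55 (ENSMUSG00000026399; chromosome 1, 130439027 to 130462744), which encodes decay-accelerating factor, had 9.71, 11.9 and 25.4 CPM in Old tumor, and 7.53, 14.9 and 18.5 CPM in Young tumor. Its log2 fold change was 0.06 (SE 0.26, adjusted p = 0.913 in edgeR), and −0.20 (SE 0.22) without Old tumor 1.

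**Figure D3:**
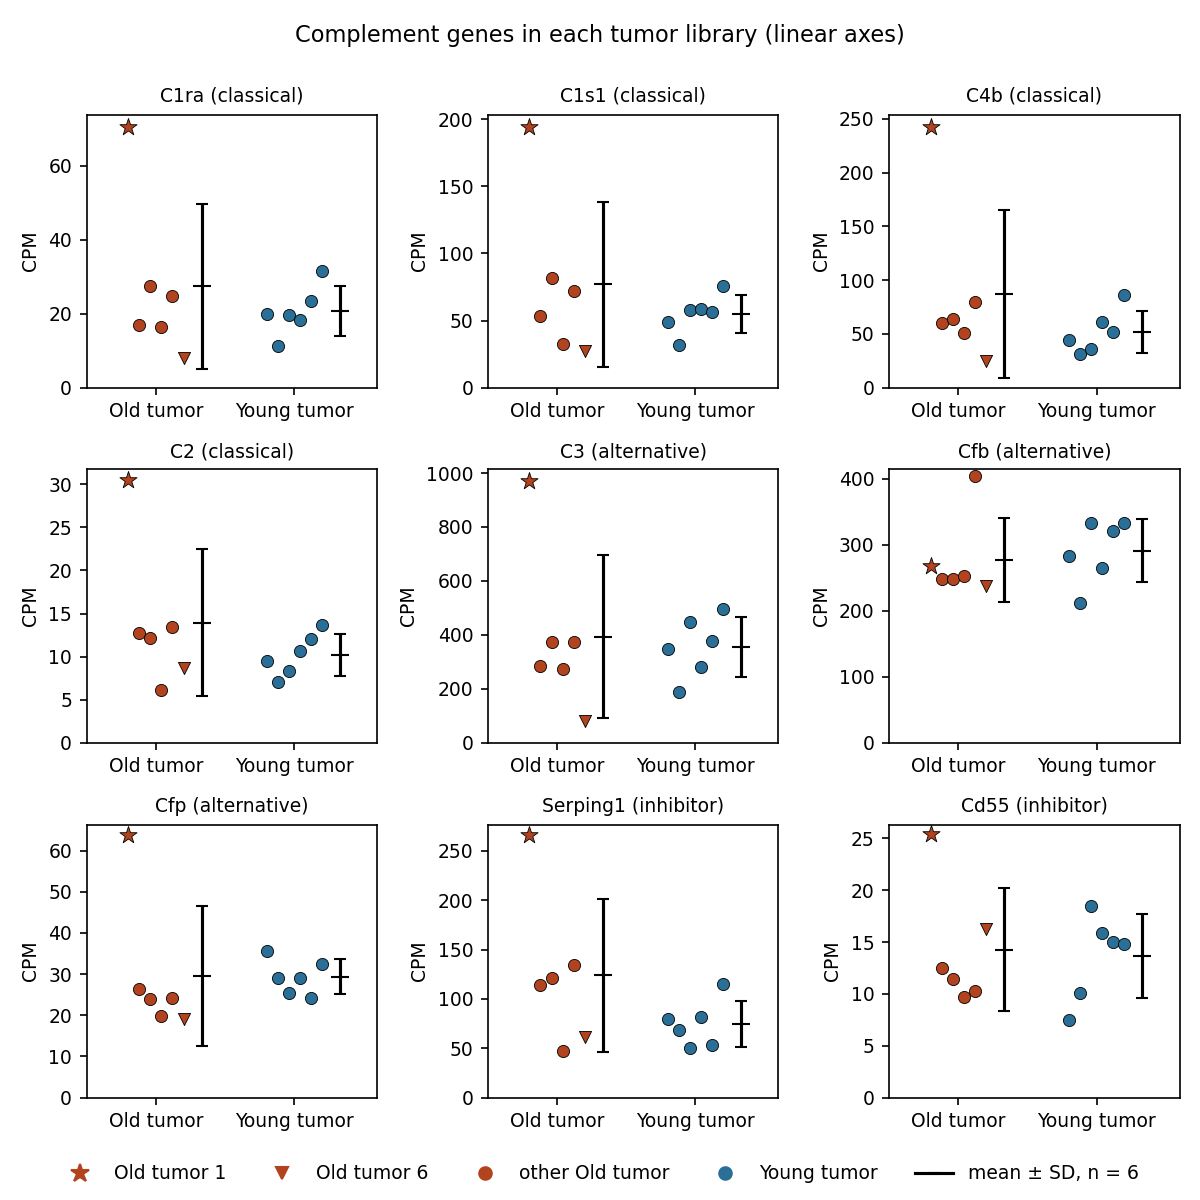
CPM of each complement gene on linear axes from 0, one point per library, Old tumor left and Young tumor right, with mean and SD of 6 libraries as bars. Old tumor 1 (star) is the highest library for 8 of the 9 genes, and Old tumor 6 (triangle) is the lowest for 5.

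RSEM divides reads among similar genes, so copies limit some values. The copies C1rb and C1s2 took at most 0.983% and 1.02% of the counts of their pair with C1ra and C1s1, and Cd55b had 0 counts in every library. C4a, the near-identical neighbour of C4b, took 1.55% to 14.4% of the pair. Gm20547, annotated across C2 and Cfb on the same strand, took up to 28.4% of the counts it shares with C2, in Old tumor 5, and at most 1.3% of those with Cfb. Zbtb12 overlaps C2 on the other strand, and the sources used here do not state the strand setting of the counting.

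Most complement genes varied more between libraries than a usual gene did. Over the 12 libraries the coefficient of variation was 82.9% for C4b, 66.8% for C1ra and C1s1, 60.9% for Serping1, 58.2% for C3 and 52.2% for C2, against a median of 18.1% over tested genes. Cfp, Cd55 and Cfb varied less, at 40.1%, 34.9% and 19.0%. Within the 6 Young tumor libraries it was 38.2% for C4b, 32.2% for C1ra, 31.7% for Serping1, 31.3% for C3 and 29.7% for Cd55. It was 25.9% for C1s1, 23.8% for C2, 16.4% for Cfb and 14.6% for Cfp. A median over tested genes was not taken for these 6 Young tumor libraries. Among them Young tumor 6 was highest and Young tumor 2 lowest for C1ra, C1s1, C2, C3 and C4b. Old tumor 1 stood at 4.69 times the Young tumor mean in CPM for C4b, 3.56 times for Serping1, 2.73 times for C3 and 0.919 times for Cfb.

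Old tumor 1 also carried more of several cell type markers. Its fibroblast markers summed to 3823 TPM, against 492 to 1676 TPM in the other Old tumor libraries and 508 to 1307 TPM in Young tumor. Its macrophage markers summed to 1762 TPM, against 716 to 996 TPM in the other Old tumor libraries and 684 to 1120 TPM in Young tumor. Its adipocyte markers summed to 364 TPM, against 28.8 to 81.9 TPM in the other Old tumor libraries and 20.3 to 43.4 TPM in Young tumor. All 3 tested adipocyte genes had a log2 fold change above 0, and the lipid droplet gene Plin4 passed the threshold (log2 fold change 2.27, SE 0.48, adjusted p = 0.035 in edgeR), though only in 3 of the 12 fits with 1 library left out (adjusted p of 0.0266 to 0.0801). Its B and plasma cell markers summed to 2584 TPM, against 67.7 to 1137 TPM in the other Old tumor and 46.3 to 617 TPM in the Young tumor libraries. Its endothelial markers summed to 351 TPM, against 93.7 to 230 TPM in the other Old tumor and 88.6 to 153 TPM in the Young tumor libraries. Old tumor 1 was also highest for the dendritic cell list, at 26.1 TPM against at most 19.6 TPM elsewhere. Over the ages, however, all 6 tested dendritic cell genes had a log2 fold change below 0, with a median of −0.43 and no call. The epithelial markers summed to 5214 TPM in Old tumor 1, against 6666 to 8339 TPM in the other Old tumor and 5314 to 9151 TPM in the Young tumor libraries. By mean log2 CPM, however, Old tumor 1 was not the lowest, at 8.11 against 7.55 in Old tumor 5 and 7.90 in Young tumor 2. All 9 fibroblast and all 10 macrophage genes were tested, 9 and 7 of them had a log2 fold change above 0, and none passed the threshold; no gene of these lists was at 0 in all libraries. Their part in the complement values was not tested.

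The complement genes varied together from library to library to different degrees. The highest r of all 36 pairs were those of C1ra with C1s1 and with C3. C1ra and C1s1, the neighbours on chromosome 6 whose windows are printed above, had r = 0.956 and Spearman's rho = 0.909 over 12 libraries (permutation p = 1e-05 and 0.00013, adjusted p = 0.00036 and 0.0024 over 36 pairs). A p of 1e-05 is the smallest these resamples can give. Without the 2 libraries farthest from the median of C1ra, Old tumor 1 and Old tumor 6, r was 0.875, and within ages it was 0.957. The ratio of their levels ran from 2.03 to 3.76 in Old tumor and from 2.56 to 3.40 in Young tumor. C1ra and C3 had r = 0.951 and rho = 0.902 (permutation p = 4e-05 and 0.00015, adjusted p = 0.00072 and 0.0024), with r = 0.896 without those 2 libraries.

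C4b joined them, at r = 0.932 and rho = 0.839 with C1ra (permutation p = 0.0001 and 0.00113, adjusted p = 0.0012 and 0.00678), and r = 0.752 without the same 2 libraries. C2 and Serping1 had r = 0.885 and rho = 0.867 (permutation p = 0.00035 and 0.00044, adjusted p = 0.0021 and 0.00396), with r = 0.693 without Old tumor 1 and Old tumor 4. Cfp and C3 had r = 0.706 and rho = 0.434 (permutation p = 0.0245 and 0.162, adjusted p = 0.0464 and 0.275). Their r was 0.484 without Old tumor 1 and 0.086 without Old tumor 1 and Old tumor 6. Cfp and Serping1 had r = 0.717 over 12 libraries, 0.358 without Old tumor 1 and 0.792 among the Young tumor libraries. Neither Cfb nor Cd55 passed with any of the other genes by Pearson's r.
All 36 pairs had r above 0 and 20 passed an adjusted p of 0.05 by Pearson's r, but only 11 passed by Spearman's rho. The median r was 0.711 over 12 libraries, 0.746 within ages and 0.477 without Old tumor 1, and pairs above 0.7 numbered 19 with and 8 without that library.

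**Figure D4:**
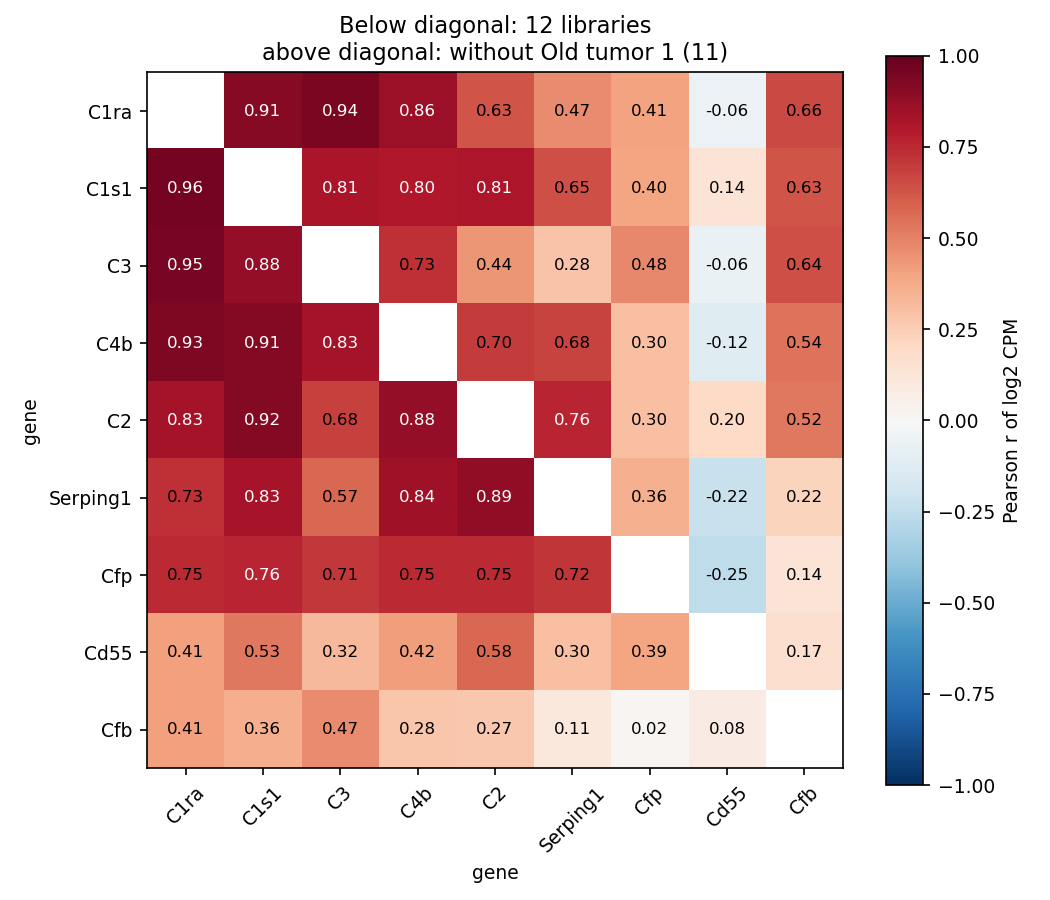
Pearson r of log2 CPM between each pair of complement genes, over 12 libraries below the diagonal and over 11 without Old tumor 1 above it. Among C1ra, C1s1, C3 and C4b every r is at least 0.829 below and 0.731 above the diagonal, while without Old tumor 1 the r of Cfb is higher with every gene and that of Cfp lower with every gene but Cfb.

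Cfb and C3, the partners in the alternative C3-cleaving enzyme, had r = 0.473 and rho = 0.678 over 12 libraries (permutation p = 0.121 and 0.0192, adjusted p = 0.181 and 0.0532). Their r was 0.979 among the 6 Young tumor and 0.300 among the 6 Old tumor libraries, values given as a description, since the difference between the ages was not tested. Without the 2 libraries farthest out on C3, Old tumor 1 with the highest C3 and Old tumor 6 with the lowest, r was 0.771.

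The genes were also set against cell type and pathway lists, as the mean log2 CPM of each list, in 126 relations with 14 lists, chosen after the first results were seen; 46 passed an adjusted p of 0.05 by Pearson's r, 17 by Spearman's rho and 16 by both. Whether a gene follows 1 list more than another was not tested. Serping1 followed the fibroblast list, with r = 0.955 and rho = 0.965 (permutation p = 1e-05 and 2e-05, adjusted p = 0.00126 and 0.00252). Its r was 0.898 without Old tumor 1 and Old tumor 4, and 0.951 within ages. By both measures Serping1 also passed with the endothelial list (r = 0.932, rho = 0.881, permutation adjusted p = 0.00252 and 0.0151) and the mesothelial list (r = 0.902, rho = 0.832, adjusted p = 0.00252 and 0.025). It passed likewise with the macrophage list (r = 0.853, rho = 0.790, permutation adjusted p = 0.0104 and 0.0358) and the inflammatory fibroblast list (r = 0.836, rho = 0.755, adjusted p = 0.00995 and 0.0472). These r were 0.837, 0.806, 0.635 and 0.704 without Old tumor 1 and Old tumor 4. By the same measure the genes most like Serping1 among 10934 with a mean of at least 5 CPM were Aebp1 (r = 0.983), Pdgfra (0.975) and Bgn (0.969), of which Pdgfra is in the fibroblast list. C4b had r = 0.905 and rho = 0.881 with the mesothelial list, whose Krt19 and Msln pancreatic tumor cells also express (permutation p = 6e-05 and 0.0005, adjusted p = 0.00252 and 0.0158), and r = 0.770 without Old tumor 1 and Old tumor 6. Its r with the inflammatory fibroblast list was 0.912 and its rho 0.685 (permutation adjusted p = 0.00252 and 0.0775), with r = 0.700 without those 2 libraries. C2 and C1s1 passed with the mesothelial list by both measures too. C2 had r = 0.867 and rho = 0.860 (permutation adjusted p = 0.0045 and 0.0176), with r = 0.749 without Old tumor 1 and Old tumor 4. C1s1 had r = 0.862 and rho = 0.776 (permutation adjusted p = 0.0063 and 0.0358), with r = 0.645 without Old tumor 1 and Old tumor 6. C2 also passed with the fibroblast list (r = 0.829, rho = 0.811, permutation adjusted p = 0.0173 and 0.028), though its r was 0.357 without Old tumor 1 and Old tumor 4.

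C3 had r = 0.859 and rho = 0.832 with the NF-kB and acute phase list (permutation p = 0.00016 and 0.00123, adjusted p = 0.00336 and 0.025), and r = 0.737 without Old tumor 1 and Old tumor 6. Of the 15 genes of that list 12 had a log2 fold change below 0, and Cebpb, which encodes a C/EBP factor, fell, with 75.6 ± 12.7 TPM in Old tumor and 110 ± 32.4 TPM in Young tumor (SD, n = 6 per age; log2 fold change −0.67, SE 0.16, adjusted p = 0.048 in edgeR). That call held in 2 of the 12 edgeR fits with 1 library left out, where its adjusted p ran from 0.0229 to 0.109. C3 and Cfb both followed the neutrophil list, which summed to 49.4 to 172 TPM in Old tumor and 62.4 to 405 TPM in Young tumor, with no call among 6 tested genes. For Cfb r was 0.716 and rho 0.818 (permutation p = 0.00866 and 0.00203, adjusted p = 0.0338 and 0.028), with r = 0.745 without Old tumor 5 and Young tumor 2. For C3 r was 0.775 and rho 0.916 (permutation p = 0.00183 and 0.00015, adjusted p = 0.0136 and 0.00945), with r = 0.810 without Old tumor 1 and Old tumor 6. C1ra passed with it as well (r = 0.671, rho = 0.783, permutation adjusted p = 0.0427 and 0.0358), with r = 0.532 without Old tumor 1 and Old tumor 6.
Cfp had r = 0.858 and rho = 0.699 with the macrophage list (permutation p = 0.00129 and 0.0141, adjusted p = 0.0116 and 0.074), a relation that did not pass by rho. Its r there was 0.891 within ages, 0.657 without Old tumor 1, and 0.573 without the pair of Old tumor 1 and Young tumor 1. Cfp passed by both measures with 3 other lists. Cfp had r = 0.737 and rho = 0.755 with the dendritic cell list (permutation p = 0.00381 and 0.00604, adjusted p = 0.0209 and 0.0472), and r = 0.700 without the same pair. With the inflammatory fibroblast list it had r = 0.829 and rho = 0.790 (permutation adjusted p = 0.0125 and 0.0358), and r = 0.684 without that pair. With the NF-kB and acute phase list it had r = 0.781 and rho = 0.755 (permutation adjusted p = 0.0114 and 0.0472), and r = 0.650 without that pair. No list passed with Cd55.

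The interferon gamma response list had 25 of 25 log2 fold changes below 0 with a median of −0.62, none of them past the threshold. C3 had r = 0.593 and rho = 0.818 with it (permutation p = 0.0365 and 0.00205, adjusted p = 0.0939 and 0.028), and r = 0.636 without Old tumor 1 and Old tumor 6. The other 8 complement genes did not pass with that list by either measure.

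**Figure D5:**
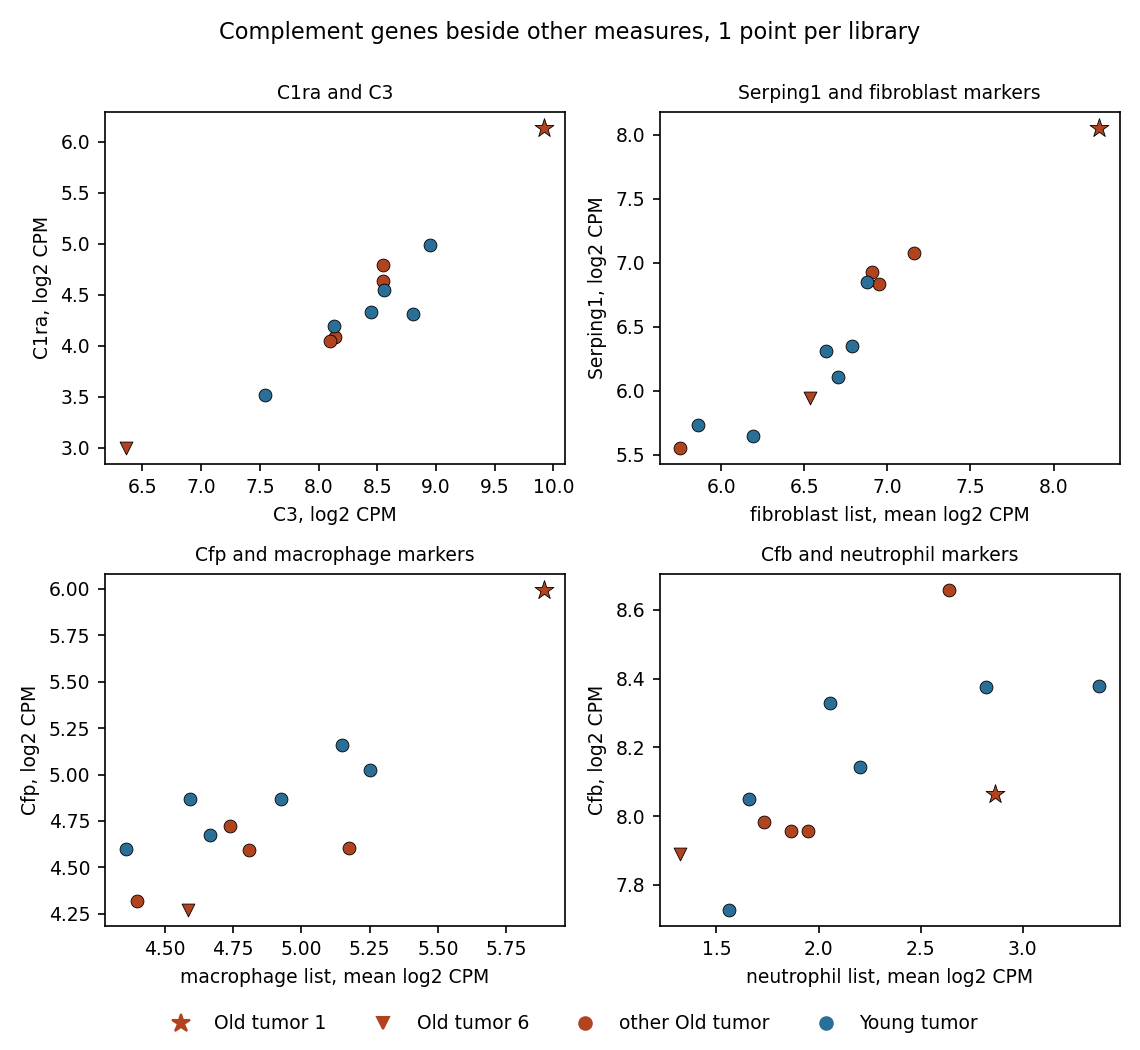
Log2 CPM of 4 complement genes against C3 or the mean log2 CPM of a marker list, one point per library, Old tumor in orange and Young tumor in blue. Serping1 rises with the fibroblast list along the whole range. For Cfp with the macrophage list r is 0.858 over 12 libraries and 0.657 without Old tumor 1 (star). It is 0.880 among the Young tumor libraries alone.

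The genes whose log2 CPM was most like each other complement gene over the 12 libraries differed between genes. For C1ra these were C1s1 (r = 0.956), C3 (0.951) and Ifi27l2a (0.941), and for C1s1 they were C1ra, Cryab (0.940) and Emilin2 (0.927). For C3 these were C1ra, Bicc1 (0.902) and Steap4 (0.893), for C4b Tacc1 (0.965), Cxcl12 (0.946) and Ccl6 (0.943), and for C2 Prnp (0.959), Cldn5 (0.958) and Rarres2 (0.955). Cfb was nearest to Gltp (0.883), Nudcd3 (0.861) and Tnfrsf1b (0.859), Cfp to Evi2a (0.922), Anpep (0.920) and Hp (0.919), and Cd55 to Sulf2 (0.867), Sort1 (0.820) and Tmem110 (0.791). Without Old tumor 1 the nearest 3 of C2 and of Serping1 were the same genes, whereas those of Cfp were all different.

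Beyond these 9, 51 other complement genes were in the tables and 29 were tested; none passed the edgeR threshold with all libraries or without Old tumor 1. Their median log2 fold change was 0.08, against 0.03 for all tested genes, with 21 above 0 and 8 below. Of all tested genes 54.2% were above 0. An unadjusted p under 0.05 in edgeR was reached by 5 of the 29, 4 higher and 1 lower, against 21.1% of all tested genes. Without Old tumor 1, 14 of the 29 were above 0, against 50.1% of tested genes, and their median was −0.006. The C1q subunit genes C1qa and C1qb, which macrophages express, were abundant. C1qa had 255 ± 85.1 TPM in Old tumor and 239 ± 56.7 TPM in Young tumor, and C1qb 231 ± 77.8 TPM in Old tumor and 211 ± 45.8 TPM in Young tumor (SD, n = 6 each). Their log2 fold changes were −0.03 (SE 0.19) and 0.00 (SE 0.19), and −0.26 (SE 0.13) and −0.22 (SE 0.13) without Old tumor 1.
Masp1, a protease gene of the lectin pathway, was at a log2 fold change of 1.68 (SE 0.65, adjusted p = 0.164 in edgeR), with 0.55, 0.935 and 8.51 TPM as lowest, median and highest value in Old tumor. The scavenger receptor gene Colec12 was at 0.82 (SE 0.31, adjusted p = 0.156 in edgeR), the receptor gene Cd93 at 0.89 (SE 0.34, adjusted p = 0.152) and C4a at 0.53 (SE 0.18, adjusted p = 0.120). The log2 fold changes without Old tumor 1 were 1.85 for Masp1, 0.48 for Colec12, 0.61 for Cd93 and 0.57 for C4a, with none past the threshold.

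Among other inhibitor genes Clu, the gene of clusterin, was far the most abundant, at 10781 ± 1281 TPM in Old tumor and 10386 ± 1103 TPM in Young tumor (SD, n = 6 per age; log2 fold change −0.09, SE 0.11). Cfi, whose protease product factor I cleaves activated C3 and C4, had 57.7 ± 25.6 TPM in Old tumor and 58.4 ± 13.0 TPM in Young tumor (log2 fold change −0.16, SE 0.27), and Cd46 was at 0.41 (SE 0.31). The terminal pathway genes C8g and C6 were at 0.60 (SE 0.31, adjusted p = 0.285 in edgeR) and −0.16 (SE 0.37). The integrin genes Itgax and Itgb2, whose products form a receptor for C3 fragments, were at −0.26 (SE 0.12, adjusted p = 0.229 in edgeR) and 0.06 (SE 0.19). With Old tumor 1 left out the log2 fold change was −0.62 (SE 0.28) for C6, −0.20 (SE 0.11) for Itgb2, 0.22 (SE 0.30) for Cd46, 0.43 (SE 0.31) for C8g, −0.32 (SE 0.13) for Itgax, −0.11 (SE 0.29) for Cfi and −0.09 (SE 0.12) for Clu.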

How the data were processed

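RNA with an integrity number above 8 was poly(A)-selected and made into strand-specific libraries, per the labels' protocols. The submitters' processing notes name cutadapt 2.3 for trimming, STAR 2.7.0d for alignment, RSEM 1.3.1 for quantification and the build mm10. Which annotation and strand setting RSEM used is not stated in these notes. For 47643 genes in 12 libraries of 17.8M to 24.1M counts, the deposited values are expected counts and TPM made by the authors. Expected counts, which RSEM need not give as whole numbers, were rounded before testing.

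Libraries were grouped by label. Genes that passed filterByExpr were tested with the quasi-likelihood F test of edgeR 4.0.16 under R 4.3.3 after TMM scaling, two-sided, with Benjamini-Hochberg adjustment over 16013 genes at 0.05. The SE is the size of the log2 fold change divided by the square root of F, and every fold change is Old tumor over Young tumor. CPM use TMM-scaled library sizes; a prior count of 2 was added for log2 CPM. Levels between genes use TPM as deposited. Correlations used 100000 permutations (scipy 1.17.1). Promoter windows came from RefSeq on GRCm38.p6, the assembly of mm10, and coordinates of genes from a GENCODE annotation of the same assembly, whose start for C1ra lies upstream of the RefSeq one.

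The complement genes and all lists were chosen with earlier results of these data known. Outside the 9, each complement list gives its 2 tested genes of smallest p and 2 of highest mean TPM, and each of the 9 its 3 nearest genes (1 gene this names is not reported here); Cebpb and Plin4 are among the 2 genes of smallest p in their lists. Alternatives were other scalings, DESeq2 1.42.0, limma-voom (limma 3.58.1), other filters, TPM with limma, a replicate block, removal of the length trend, other thresholds and each library left out; the fit without Old tumor 1 and Old tumor 6 and the relations with lists were added after the data were seen. Scripts were tested on simulated data.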

Additional observations from a re-analysis of the deposited data

Results flagged for a closer look

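Among the 18 groups of 6 libraries examined, 9 genes in 2 ages, a single library lay far from the rest in 2. Chance alone flags about 1 in 20 such groups. Cfb in Old tumor 5 had a log2 CPM of 8.66, against 7.89 to 8.06 in the other Old tumor libraries, a gap of 0.774 of the whole range. Cfp in Old tumor 1 had a log2 CPM of 6.00, against 4.27 to 4.72 in the other Old tumor libraries, a gap of 0.739 of the range. The high values of Old tumor 1 for the other genes were not singled out by this measure.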

How the results depend on the processing

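No complement gene passed the threshold in any alternative; the adjusted p of the 9 ran from 0.0592 to 0.999. Over 225 alternative values 28 changed sign. Leaving out 1 library gave log2 fold changes of −0.16 to 0.59 for C1ra, −0.062 to 0.66 for C1s1, 0.04 to 0.60 for C2, −0.38 to 0.35 for C3, 0.09 to 0.95 for C4b, −0.20 to −0.03 for Cfb, −0.38 to 0.11 for Cfp, 0.34 to 0.90 for Serping1 and −0.20 to 0.18 for Cd55. Signs also changed with limma-voom (C1ra −0.092, C1s1 −0.038, C3 −0.44, Cfp −0.21, Cd55 −0.13) and for C3 on log2(TPM + 1) (−0.0011) and log2(TPM + 0.1) (−0.0034). They changed without Old tumor 1 and Old tumor 5 (C1ra −0.26, C1s1 −0.17, C2 −0.038, C3 −0.48, C4b −0.046, Cfp −0.38, Cd55 −0.13) and without Old tumor 1 and Old tumor 6 (C3 −0.14, Cfp −0.32, Cd55 −0.32). Cfb stayed below and Serping1 above 0 in every alternative. On the TPM scales all tested genes had a median of 0.127 and 0.151, against 0.03.

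The count over all genes, 362, was 1425 with DESeq2, 977 with limma-voom, 151 with no filter, 2 with the length trend removed, 742 without Old tumor 1 and Old tumor 5, 636 without Old tumor 1 and Old tumor 6, 1 at an adjusted p of 0.01 and 1256 at 0.1. Leaving out 1 library gave 2 to 1106. The causes were not tested. Higher calls were 127 of 362, 152 of 295 with total counts, and 291 of 339 and 312 of 356 on the TPM scales. With the replicate number as a block 1 gene passed, and C3 was −0.079 and Cfp −0.12. The values gave no sign that the numbers pair the libraries: same-numbered deviations correlated at −0.23 to 0.139, and 1 of 6 libraries correlated best with its own number. So few correlations cannot exclude a pairing.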

Other observations

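Cfd, which encodes factor D, the protease that activates factor B and a known product of fat cells, was chosen after its values were seen. It had 3094 expected counts (246 TPM) in Old tumor 1 and 0 to 45 in the other Old tumor libraries, against 101 in Young tumor 4 and 0 in the other Young tumor libraries. It did not pass the low-count filter and was not tested. Adipocyte markers summed to 364 TPM in Old tumor 1, as given above. A link of Cfd to these markers was not tested. Hc, the mouse gene of complement C5, was low, at 1.40 ± 0.814 TPM in Old tumor and 1.42 ± 0.432 TPM in Young tumor (SD, n = 6 per age). Its log2 fold change was −0.06 (SE 0.43), and 0.046 without Old tumor 1.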
